A study of Homo sapiens with 21 samples.

Results

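The genes described here are the nuclear-encoded subunits of the oxidative phosphorylation complexes, followed over 7 groups of HCT-116 cultures. HCT-116 is a colorectal carcinoma line of epithelial origin. Members were taken from the gene table by symbol: NDUFA, NDUFB, NDUFC, NDUFS and NDUFV genes, SDHA to SDHD, UQCR genes and CYC1, COX4 to COX8 genes, and ATP5F, ATP5M, ATP5P genes with ATP5IF1. Only protein-coding genes on primary nuclear chromosomes counted, and neither assembly factors nor pseudogenes entered. The rule found 90 of the 65065 genes in the table: 37 of complex I, 4 of complex II, 10 of complex III, 19 of complex IV and 20 of complex V. Of these, 2 are readthrough genes (NDUFC2-KCTD14 and ATP5MF-PTCD1). NDUFA4 and NDUFA4L2 were counted with complex IV, where the NDUFA4 protein is found.

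The study exposed HCT-116 cells to extracellular vesicles (EVs), the membrane-bound particles that cells release, isolated from serum of patients with hepatocellular carcinoma (HCC+) or of healthy people (HCC-). Each source was used at 1.2, 0.24 and 0.048 mg/mL, and the blank received no EVs. All cultures grew in DMEM with exosome-depleted serum, and 3 libraries of poly(A) RNA were sequenced per group, 21 in all. The design text sets HCC+ EVs against healthy EVs and against control cells. How long the cells were exposed, how many donors stand behind each EV preparation, and what the mg refers to: none of this is given in the sources used here. Nor is it stated that the replicate libraries are separate cultures, so p-values measure only the spread between these libraries, which may be technical.

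Oxidative phosphorylation passes electrons from NADH (through complex I) and succinate (through complex II) by way of ubiquinone, complex III and cytochrome c to complex IV, which reduces oxygen. Complexes I, III and IV pump protons across the inner mitochondrial membrane, and complex V, the ATP synthase, lets them flow back to make ATP. Complex II is encoded by nuclear genes alone, whereas each of the other 4 complexes also contains subunits made from mitochondrial DNA. Transcription of the nuclear genes is known to depend on factors such as NRF1, GABP (an ETS family factor) and YY1.

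Promoter sequences are shown for the gene with the lowest fold change in each complex at the highest HCC- dose, so that the strongest responders can be compared. They run from 250 bases before to 30 bases after the RefSeq start on GRCh38.p14, all on the plus strand: chr2:201071751-201072030 for NDUFB3 (complex I), chr11:112086623-112086902 for SDHD (complex II), chr16:21953111-21953390 for UQCRC2 (complex III), chr11:63974370-63974649 for COX8A (complex IV) and chr17:48892537-48892816 for ATP5MC1 (complex V). Capitals mark matches to 5 motifs searched on both strands: NRF1 (GCGCA, any base, GCGC), ETS/GABP (CCGGAAG), YY1 (AANATGGCG), SP1 (GGGCGGG) and the E-box (CACGTG).
NDUFB3: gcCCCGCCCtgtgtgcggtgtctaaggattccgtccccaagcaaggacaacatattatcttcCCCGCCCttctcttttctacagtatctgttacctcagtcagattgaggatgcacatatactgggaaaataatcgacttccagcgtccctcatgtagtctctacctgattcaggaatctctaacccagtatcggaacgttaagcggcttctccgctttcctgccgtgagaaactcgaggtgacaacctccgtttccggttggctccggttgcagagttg
SDHD: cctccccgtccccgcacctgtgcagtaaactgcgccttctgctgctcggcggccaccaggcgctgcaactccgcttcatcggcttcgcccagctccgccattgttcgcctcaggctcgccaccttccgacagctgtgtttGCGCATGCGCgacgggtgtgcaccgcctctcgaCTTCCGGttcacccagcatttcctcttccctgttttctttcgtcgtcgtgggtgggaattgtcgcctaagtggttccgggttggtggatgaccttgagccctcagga
UQCRC2: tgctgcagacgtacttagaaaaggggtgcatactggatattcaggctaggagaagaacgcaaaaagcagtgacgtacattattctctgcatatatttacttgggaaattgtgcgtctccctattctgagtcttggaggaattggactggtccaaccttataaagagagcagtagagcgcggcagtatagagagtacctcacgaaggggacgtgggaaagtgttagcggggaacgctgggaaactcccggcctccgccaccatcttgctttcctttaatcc
COX8A: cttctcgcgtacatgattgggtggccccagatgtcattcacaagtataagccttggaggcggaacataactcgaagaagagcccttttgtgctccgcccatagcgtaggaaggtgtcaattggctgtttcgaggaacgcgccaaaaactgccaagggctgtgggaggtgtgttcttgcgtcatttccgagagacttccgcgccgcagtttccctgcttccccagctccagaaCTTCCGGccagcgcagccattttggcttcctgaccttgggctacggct
ATP5MC1: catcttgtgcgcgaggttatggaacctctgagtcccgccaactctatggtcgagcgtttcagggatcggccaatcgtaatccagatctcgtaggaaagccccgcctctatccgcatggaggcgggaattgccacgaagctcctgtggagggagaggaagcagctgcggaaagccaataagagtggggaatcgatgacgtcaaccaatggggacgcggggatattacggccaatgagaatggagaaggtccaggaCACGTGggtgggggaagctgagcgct
The capitals are a pair of SP1 matches in NDUFB3, an NRF1 match and an ETS/GABP match in SDHD, an ETS/GABP match in COX8A and an E-box in ATP5MC1. None of the 5 motifs was found in the window of UQCRC2, which says only that these letters are not there.

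A RefSeq promoter was matched by symbol for 70 of the 90 members. The NRF1 motif was in 17 of the 70 (24.3%) and in 6.20% of all 27305 promoters of the table. ETS/GABP matches were in 20 of 70 (28.6%, against 10.3% of all promoters), and YY1 matches in 11 of 70 (15.7%, against 2.72%). Complex I held 8 of these 11 YY1 matches among its 32 promoters. SP1 matches were in 27.1% of the members' windows and 32.4% of all windows, and E-boxes in 10.0% and 7.14%. All members are protein-coding, so the 15317 protein-coding promoters are the closer comparison. Among these the shares were 8.54% for NRF1, 14.03% for ETS/GABP, 3.83% for YY1, 44.6% for SP1 and 8.62% for E-boxes. SP1 matches were thus less frequent in the members' windows than in those of protein-coding genes. All of these are counts of letters and not of bound sites. With HCC- EVs at 1.2 mg/mL, the median log2 fold change of the tested members was -0.46 for the 16 with an NRF1 match and -0.70 for the 50 without. For ETS/GABP it was -0.78 for the 20 with a match and -0.55 for the 46 without, so the motifs did not sort the members in one direction.

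Each library held between 31219343 and 64012757 counts. Levels are given as CPM (counts scaled to a common library size, with TMM factors), and a gene is called changed where the edgeR quasi-likelihood test, adjusted by Benjamini-Hochberg over the 19556 genes tested, gave an adjusted p under 0.05. In bulk libraries, fewer cells of a type and less RNA per cell cannot be told apart. The 7 epithelial markers together stood between 3263 and 4930 CPM in all libraries, with the lowest sums in HCC- 1.2 mg/mL, and CDX1 was at 0 in 5 groups. Summed leukocyte markers were between 1.15 and 1.53 CPM in the blank, between 2.97 and 4.19 CPM with HCC+ EVs and between 5.09 and 6.92 CPM with HCC- EVs at 1.2 mg/mL. All 3 tested genes of that list were called higher with each source, while S100A8 and S100A9 were at 0 throughout. Endothelial marker sums went from at most 0.591 CPM in the blank to at most 3.28 and 7.81 CPM in these groups, with both tested genes called higher. Of 6 epithelial markers tested, 3 fell at the highest HCC- dose and 0 at the highest HCC+ dose. The 4 platelet markers summed to between 3.12 and 5.52 CPM over all libraries; PPBP and PF4 were at 0 throughout, and of the 2 tested, GP1BA fell with HCC- EVs. COL1A1, the 1 fibroblast marker tested, rose with each source; of 2 erythroid markers SLC4A1 rose with HCC- EVs, and of 3 hepatocyte markers SERPINA1 rose with HCC+ EVs. The nuclear RNA NEAT1 stood at 70.2 CPM in the blank, 137 CPM with HCC+ EVs and 229.8 CPM with HCC- EVs at 1.2 mg/mL. Their part in the results below was not tested.

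Expression of the subunit genes was lowest at the highest dose of each source, and lower with HCC- than with HCC+ EVs. Together the 83 tested members took 0.936% ± 0.0309 of all counts in the blank (mean ± SD over 3 libraries), 0.837% ± 0.00548 with HCC+ EVs at 1.2 mg/mL and 0.721% ± 0.0181 with HCC- EVs at 1.2 mg/mL. At 0.24 mg/mL the share was 0.909% ± 0.0123 with HCC+ and 0.915% ± 0.0154 with HCC- EVs. At 0.048 mg/mL it was 0.930% ± 0.00738 with HCC+ and 0.974% ± 0.0324 with HCC- EVs. In each library of both 1.2 mg/mL groups the share was below that of every other library.

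**Figure D1:**
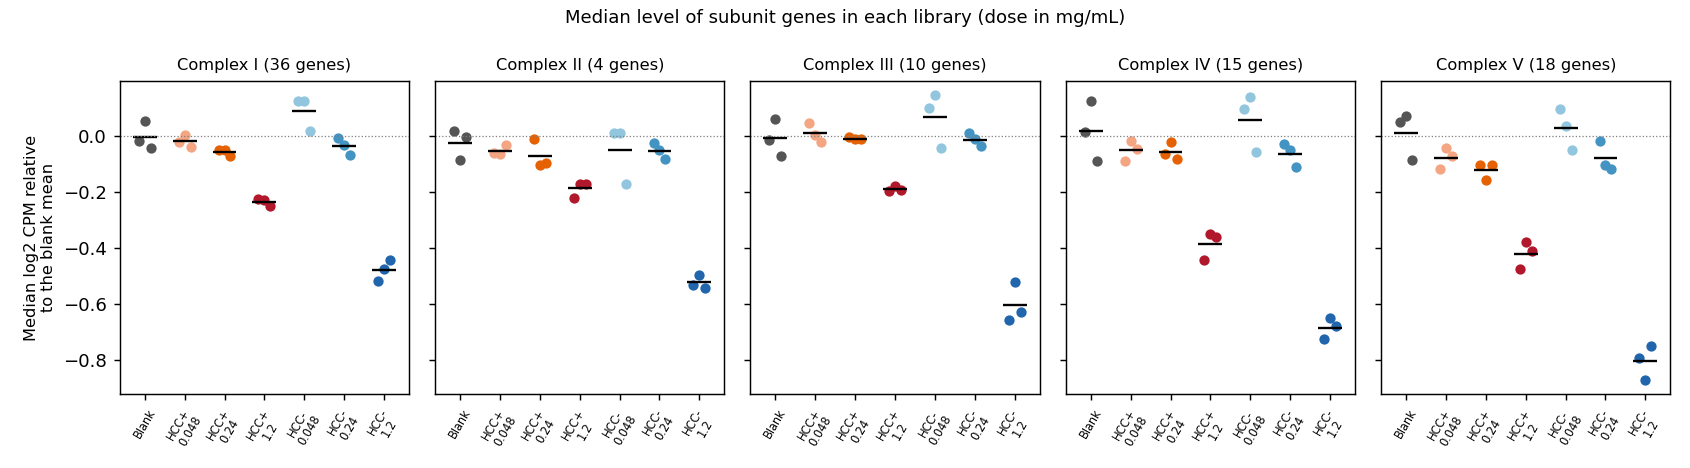
Each point is 1 library: the median, over the tested genes of a complex, of log2 CPM relative to the blank mean (vertical axis), for the 7 groups (horizontal axis, dose in mg/mL); black lines are group means of the 3 libraries. In all 5 complexes the HCC- 1.2 mg/mL libraries are lowest. The HCC+ 1.2 mg/mL libraries are next, except in complex II, where an HCC- 0.048 mg/mL library at -0.17 reaches them.

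Complex medians for each library are plotted by group. In complex V the median relative to the blank mean was -0.48, -0.38 and -0.41 on the log2 scale in the 3 HCC+ libraries and -0.79, -0.87 and -0.75 in the 3 HCC- libraries at 1.2 mg/mL. Complex I medians were -0.22, -0.23 and -0.25 in the HCC+ libraries, against -0.52, -0.48 and -0.44 in the HCC- libraries. The blank libraries themselves spread from -0.085 to 0.071 in complex V and from -0.042 to 0.054 in complex I, so that the 1.2 mg/mL libraries lay outside the blank range. HCC- 0.048 mg/mL libraries were uneven: in complex III their medians were 0.10, 0.15 and -0.044, with the library of replicate 3 below the others.

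Levels between genes were compared per kilobase of the summed exon length in the gene table. In the blank, ATP5F1B, the catalytic beta subunit of the ATP synthase head, had the highest value of all members at 672 CPM per kb. The highest of complex I was NDUFS5 (318), of complex III UQCRH (188), of complex IV COX8A (128) and of complex II SDHB (48.4 CPM per kb). This order depends on the summed exon length, which was 494 bases for COX8A and 4792 for COX4I1 (86.8 CPM per kb). Over all 21 libraries COX4I1 had 383547 counts and COX8A 53337. Of the 90 members, 7 did not pass the filter on low counts. They were the 2 readthrough genes, the tissue-restricted isoforms COX4I2, COX6A2, COX7B2 and COX8C, and ATP5MGL. COX6A2 and COX7B2 had 0 counts in all 21 libraries, which allows up to 3 counts in all (counting error only). All 83 others were tested. Of these, 30 share over 10% of their exon bases with another gene, and their counts are less certain.

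With HCC- EVs at 1.2 mg/mL, 70 of the 83 tested members fell against the blank and 0 rose. Over all genes tested, 28.5% fell and 24.8% rose in this comparison. The median log2 fold change of the members was -0.58, beside 0.051 over all genes, and the called members were between 13.7% and 63.3% lower. In all 70 the 3 HCC- libraries lay below the 3 blank libraries. Here and below, such separation is described for genes called on the same libraries, so it adds no separate support. Its share over all genes is not given. By complex, 29 of 36 tested genes of complex I fell (median -0.49), 3 of 4 of complex II (-0.52), 8 of 10 of complex III (-0.60), 12 of 15 of complex IV (-0.69) and 18 of 18 of complex V (-0.83).

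With HCC+ EVs at 1.2 mg/mL, 56 of the 83 fell and 1 rose, where 17.4% of all genes fell and 15.6% rose. The members' median was -0.30, beside 0.013 over all genes. Among these called genes the groups did not overlap for 53 of the 56, and NDUFB10, NDUFS1 and COX7A1 were the exceptions. Complex I had 18 of 36 genes lower and 1 higher (median -0.24), complex II 2 of 4 lower (-0.17), complex III 5 of 10 (-0.17), complex IV 13 of 15 (-0.39) and complex V 18 of 18 (-0.41). Both sources were compared with the same 3 blank libraries, so the comparisons are not independent. Scaling to the total count in place of TMM raised the median of all genes by 0.28 with HCC- and by 0.12 with HCC+ EVs, and the split of calls moved with it. With HCC- EVs 52 members then fell and 6 rose, where 15.8% of all genes fell and 41.6% rose. With HCC+ EVs 38 fell and 3 rose, where 10.6% of all genes fell and 23.8% rose. Under that scaling 17 and 13 of the 18 complex V genes still fell.

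**Figure D2:**
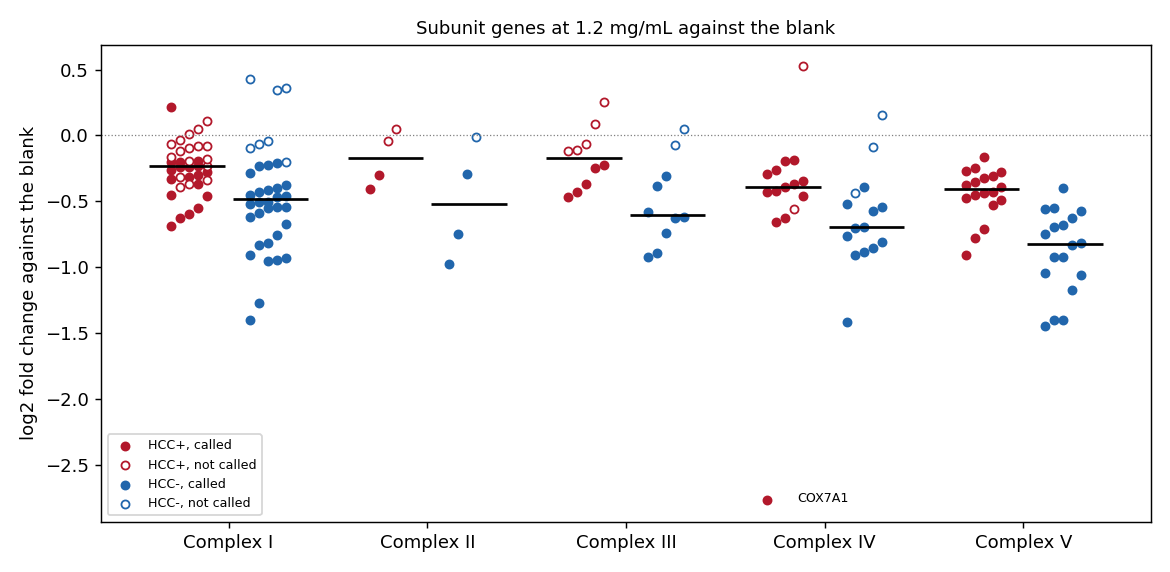
Each point is a tested gene, placed by complex (horizontal axis) and by its log2 fold change against the blank at 1.2 mg/mL (vertical axis); filled points passed an adjusted p of 0.05, and black lines are medians. All 18 genes of complex V are filled and below 0 with both sources, while complex I has open points around 0; COX7A1 stands apart on 4 counts.

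In complex I, the NADH dehydrogenase, the largest falls with HCC- EVs were in the supernumerary subunit NDUFB3 and in the core subunit NDUFV1, which carries the NADH-binding flavin site. NDUFB3 stood at 38.9, 39.5 and 36 CPM in the blank, at 19.9, 26.3 and 24.7 CPM with HCC+ EVs and at 14.8, 13.5 and 15 CPM with HCC- EVs at 1.2 mg/mL. All 3 groups were separate from one another, with log2 fold changes against the blank of -0.69 ± 0.10 (SE, edgeR adjusted p = 1.27e-06) and -1.40 ± 0.10 (adjusted p = 1.93e-13). NDUFB3 shares 25.9% of its exon bases with HYCC2 on the opposite strand, and the counting is not stated to use strand. NDUFV1 stood at 129.8, 169 and 134 CPM in the blank, 97.7, 92.6 and 105 CPM with HCC+ EVs and 59.1, 65.8 and 54 CPM with HCC- EVs. Again no library of one group reached another, and the log2 fold changes were -0.55 ± 0.081 (adjusted p = 3.56e-06) and -1.27 ± 0.083 (adjusted p = 3.79e-14). NDUFA10, a supernumerary subunit, was at 160.0, 179 and 155 CPM in the blank, 105, 112 and 110.0 CPM with HCC+ EVs and 85.1, 90.1 and 80.3 CPM with HCC- EVs, a stepwise order without overlap and log2 fold changes of -0.59 ± 0.065 and -0.95 ± 0.065 (adjusted p = 2.13e-08 and 1.22e-13).

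Of the 7 catalytic core genes of complex I, 4 fell with HCC- EVs (median -0.41) and 2 with HCC+ EVs (median -0.20). Among the 29 supernumerary genes tested, 25 fell with HCC- EVs (median -0.50) and 16 with HCC+ EVs (median -0.24); the difference between core and supernumerary genes was not tested. The highest complex I values with HCC- EVs belonged to genes with few counts, NDUFV2 and NDUFA7. NDUFV2, the iron-sulphur partner of NDUFV1, was at 0.677, 0.984 and 1.1 CPM in the blank and 1.14, 1.35 and 1.26 CPM with HCC- EVs, where the HCC- libraries were higher but the difference was not called (log2 fold change 0.43 ± 0.30, adjusted p = 0.24). Its pseudogene NDUFV2P1 held 146% of the counts assigned to NDUFV2, so reads may be split between the copies and the level is uncertain. NDUFA7 was at 0.643, 0.246 and 0.724 CPM in the blank and 0.439, 0.956 and 0.673 CPM with HCC- EVs (0.36 ± 0.45, adjusted p = 0.53), with overlapping libraries and 33.5% of its exon bases shared.

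NDUFA8, a supernumerary subunit that faces the intermembrane space, was the only member called higher at 1.2 mg/mL against the blank. It stood at 67.1, 61.8 and 59.1 CPM in the blank, at 70.5, 73.7 and 73.8 CPM with HCC+ EVs and at 49, 56 and 49.5 CPM with HCC- EVs. The HCC+ libraries were all above and the HCC- libraries all below the blank, with log2 fold changes of 0.21 ± 0.071 (adjusted p = 0.0188) and -0.28 ± 0.071 (adjusted p = 0.00121). The rise was not called without blank replicate 3 (adjusted p = 0.11) or without HCC+ replicate 2 (0.051) or 3 (0.056). Under total count scaling the HCC- value turned to 0.0016 and was not called; NDUFB2, NDUFB9 and NDUFS4 likewise changed from called lower to just above 0 there.

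In complex II, succinate dehydrogenase, both membrane anchors fell with each source, and the flavoprotein was not called. SDHD, a membrane anchor, was at 78.2, 57.9 and 67.3 CPM in the blank, 44.4, 57.8 and 51.3 CPM with HCC+ EVs and 39.5, 31.2 and 32.3 CPM with HCC- EVs at 1.2 mg/mL. No HCC+ library reached the blank range and no HCC- library reached the HCC+ range, and the log2 fold changes were -0.40 ± 0.10 (adjusted p = 0.00126) and -0.98 ± 0.10 (adjusted p = 3.68e-10). SDHC, the other anchor, was at 145, 139 and 141 CPM in the blank, 109.8, 119 and 116 CPM with HCC+ EVs and 87.1, 86 and 80.1 CPM with HCC- EVs, again in separate ranges (-0.30 ± 0.058 and -0.75 ± 0.059, adjusted p = 1.36e-04 and 2.61e-12).

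SDHB, the iron-sulphur subunit, was at 119.7, 120.3 and 118 CPM in the blank, 113, 118 and 115 CPM with HCC+ EVs and 93, 98.8 and 99.6 CPM with HCC- EVs. The HCC- libraries all lay below the blank (-0.30 ± 0.062, adjusted p = 1.65e-04), and under total count scaling that value was -0.013 and not called. The HCC+ libraries at 113 and 115 CPM also lay below the blank, but the change with HCC+ EVs was not called (-0.043 ± 0.062, adjusted p = 0.65). SDHA, the flavoprotein that binds succinate, was at 9.55, 8.69 and 10.8 CPM in the blank, 10.5, 8.84 and 10.7 CPM with HCC+ EVs and 9.73, 8.74 and 10.2 CPM with HCC- EVs. These ranges overlapped, and neither source was called (0.048 ± 0.11 and -0.015 ± 0.11, adjusted p = 0.78 and 0.92), although total count scaling called SDHA higher with HCC- EVs (0.27). The 4 SDHA pseudogenes together held 394% of the counts assigned to SDHA, so its level is uncertain.

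In complex III, ubiquinol-cytochrome c reductase, the lowest values with HCC- EVs were in UQCRC2, UQCRQ and UQCRH. UQCRC2, a core protein on the matrix side, was at 217, 217 and 225 CPM in the blank, 172, 194 and 189 CPM with HCC+ EVs and 121, 128 and 99.2 CPM with HCC- EVs. The HCC- libraries were far below both other groups (-0.92 ± 0.067, adjusted p = 5.21e-13); with HCC+ EVs the fall was -0.25 ± 0.067 (adjusted p = 0.00431) and was not called without HCC+ replicate 1 (adjusted p = 0.056) or under total count scaling (-0.13). UQCRQ, a small subunit, was at 55.6, 66.2 and 55.3 CPM in the blank, 42.1, 42.1 and 44.2 CPM with HCC+ EVs and 30.3, 33 and 32.1 CPM with HCC- EVs. Here each treated group was apart from the blank (-0.46 ± 0.077 and -0.89 ± 0.078, adjusted p = 1.99e-05 and 2.84e-11).

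UQCRH, the hinge protein that assists electron transfer to cytochrome c, was at 251, 270.1 and 237 CPM in the blank, 185, 191 and 187 CPM with HCC+ EVs and 139.6, 157 and 157 CPM with HCC- EVs, with no overlap (-0.43 ± 0.065 and -0.74 ± 0.065, adjusted p = 5.14e-06 and 3.42e-11). CYC1, cytochrome c1, separated the sources: it was at 294, 363 and 309 CPM in the blank, 310.2, 291 and 323 CPM with HCC+ EVs and 206, 226 and 193 CPM with HCC- EVs. The HCC+ libraries overlapped the blank (-0.064 ± 0.067, adjusted p = 0.50) and the HCC- libraries did not (-0.63 ± 0.067, adjusted p = 1.96e-09). Of the other members, UQCR11 was at 25.1, 21.2 and 26 CPM in the blank and 23.1, 27.6 and 24.3 CPM with HCC- EVs, overlapping ranges that were not called (0.053 ± 0.087, adjusted p = 0.64), although total count scaling called it higher (0.33). UQCRHL, a copy of UQCRH with a restricted range of tissues, was between 0.649 and 1.83 CPM over all libraries and was not called with either source (0.25 ± 0.32 and -0.074 ± 0.32).

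Complex IV, cytochrome c oxidase, was led by COX8A, a small subunit of the membrane part. COX8A stood at 59.8, 73.1 and 57.4 CPM in the blank, 39, 40.2 and 41.3 CPM with HCC+ EVs and 22.8, 25.2 and 23.6 CPM with HCC- EVs at 1.2 mg/mL. The 3 groups did not overlap, and the log2 fold changes were -0.66 ± 0.086 (adjusted p = 4.97e-07) and -1.41 ± 0.088 (adjusted p = 1.49e-14). COX8A shares 35.4% of its exon bases with another gene on the same strand, so its counts are less certain. COX5B, a zinc-binding subunit on the matrix side, was at 90.1, 107 and 89.3 CPM in the blank, 72.8, 74.5 and 74.1 CPM with HCC+ EVs and 49.3, 51.8 and 51.5 CPM with HCC- EVs. It too showed separate ranges in the 3 groups (-0.37 ± 0.071 and -0.91 ± 0.071, adjusted p = 1.11e-04 and 2.72e-12).

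COX7A2L, known for joining complexes III and IV into supercomplexes, was at 84.8, 78 and 79.3 CPM in the blank, 54.7, 58.4 and 62.7 CPM with HCC+ EVs and 47.4, 41.8 and 42.1 CPM with HCC- EVs. All libraries kept the same order by group (-0.46 ± 0.067 and -0.88 ± 0.067, adjusted p = 2.71e-06 and 1.51e-12). With GC content and length trends removed, COX7C and COX6A1 turned from called lower with HCC+ EVs to 0.052 and 0.034, not called. Of the tissue-restricted isoforms of complexes III and IV, 4 of 8 were tested. COX6B2, the isoform known from testis, was at 0.982, 0.837 and 0.549 CPM in the blank, 0.837, 0.917 and 1.61 CPM with HCC+ EVs and 1.08, 0.80 and 0.722 CPM with HCC- EVs, overlapping and not called (0.52 ± 0.33 and 0.15 ± 0.33, adjusted p = 0.23 and 0.72). NDUFA4L2 was at 0.406, 1.82 and 1.7 CPM in the blank, 0.623, 0.955 and 1.13 CPM with HCC+ EVs and 1.08, 1.4 and 1.31 CPM with HCC- EVs, also overlapping and not called (-0.56 ± 0.33 and -0.087 ± 0.32). COX7A1, the isoform known from muscle, was at 0.0338, 0.271 and 0.25 CPM in the blank and 0.0429, 0 and 0.0354 CPM with HCC+ EVs. That is 22 counts against 4 over the 3 libraries of each group; the call (-2.77 ± 1.03, adjusted p = 0.0379) was lost without blank replicate 2 or 3, without any 1 of the HCC+ libraries and with no filter on low counts.

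In complex V every tested gene fell with each source, in the F1 part, in the peripheral stalk and membrane part and in the inhibitor. The F1 part was taken as ATP5F1A to ATP5F1E, so it holds central stalk subunits as well as the catalytic head. Its 5 genes had medians of -0.32 with HCC+ and -0.68 with HCC- EVs. The 12 peripheral stalk and membrane genes had medians of -0.46 and -0.92. ATP5F1A, the alpha subunit of the head, was at 931, 899 and 862 CPM in the blank, 809, 785 and 805 CPM with HCC+ EVs and 611, 627 and 603 CPM with HCC- EVs. Although its HCC+ change was the smallest of the complex (-0.17 ± 0.048, adjusted p = 0.00692), no library overlapped the blank; the HCC- change was -0.55 ± 0.048 (adjusted p = 2.88e-11). ATP5PD, a subunit of the peripheral stalk, was at 106, 97.5 and 94.3 CPM in the blank, 54.7, 60.3 and 58.9 CPM with HCC+ EVs and 38.9, 39.7 and 34.4 CPM with HCC- EVs. These ranges were widely apart (-0.78 ± 0.077 and -1.40 ± 0.079, adjusted p = 4.49e-09 and 1.73e-15). ATP5IF1, which inhibits ATP hydrolysis by the enzyme, was at 83.9, 93.4 and 81.5 CPM in the blank, 62.9, 69.5 and 70.5 CPM with HCC+ EVs and 64, 66.6 and 66 CPM with HCC- EVs. Both treated groups lay below the blank and overlapped one another (-0.35 ± 0.062 and -0.40 ± 0.062, adjusted p = 4.07e-05 and 2.16e-06).

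ATP5MC1, ATP5MC2 and ATP5MC3 encode the same mature c subunit of the rotor ring with different import peptides, and all 3 fell with each source. ATP5MC1 was at 95.8, 115 and 104 CPM in the blank, 59, 63 and 70.4 CPM with HCC+ EVs and 37.8, 42.9 and 34.7 CPM with HCC- EVs at 1.2 mg/mL. The log2 fold changes were -0.71 ± 0.085 (adjusted p = 1.22e-07) and -1.45 ± 0.086 (adjusted p = 6.07e-15), the latter the lowest of all members. ATP5MC2 was at 97.2, 114 and 79.8 CPM in the blank, 51.7, 52.6 and 51.1 CPM with HCC+ EVs and 34.9, 39.4 and 36.1 CPM with HCC- EVs (-0.90 ± 0.094 and -1.40 ± 0.10, adjusted p = 9.07e-09 and 1.09e-13). ATP5MC3, the most counted of the 3, was at 304, 314 and 259.9 CPM in the blank, 236, 235 and 239 CPM with HCC+ EVs and 146, 162 and 155 CPM with HCC- EVs (-0.31 ± 0.061 and -0.92 ± 0.061, adjusted p = 1.89e-04 and 6.91e-14). For each of the 3 genes the blank, HCC+ and HCC- libraries formed separate ranges. Of the counts of the 3 genes together, ATP5MC3 took 59.2% ± 1.7 in the blank, 67.1% ± 0.916 with HCC+ EVs and 67.3% ± 1.24 with HCC- EVs (mean ± SD), while ATP5MC1 took 21.3% ± 2.05, 18.2% ± 1.28 and 16.7% ± 1.2. In the same order ATP5MC2 took 19.5% ± 1.5, 14.7% ± 0.445 and 16.0% ± 0.0972, lowest with HCC+ EVs. At the lower doses the mean ATP5MC3 share lay between 58% and 61%, and no library of those groups or the blank reached the lowest 1.2 mg/mL library, at 66.3%.

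**Figure D3:**
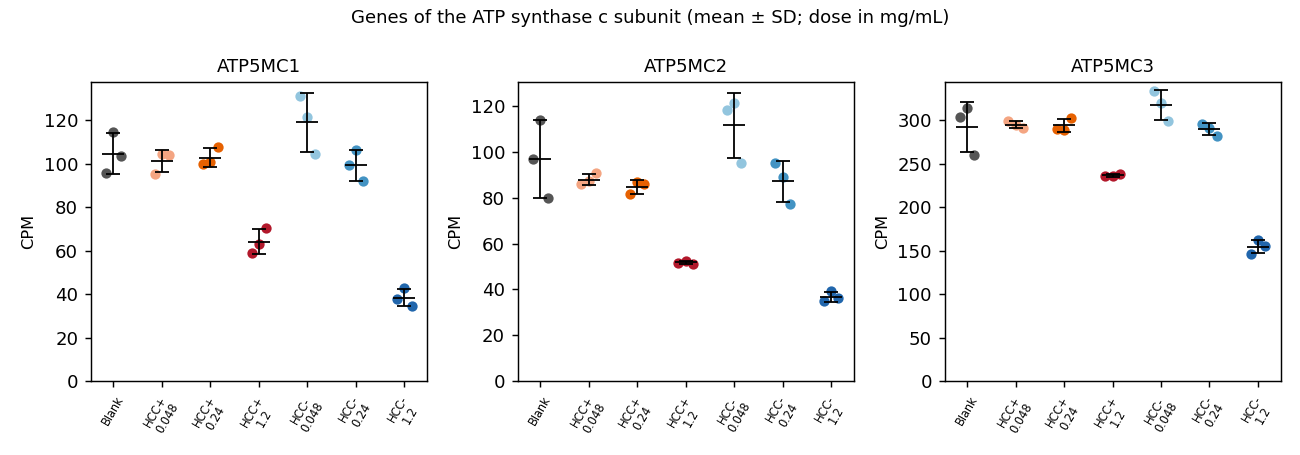
CPM (vertical axis, from 0) of the 3 c subunit genes in each library of the 7 groups (horizontal axis, dose in mg/mL), with mean ± SD of the 3 libraries in black. The 1.2 mg/mL libraries are below all others for each gene, and HCC- below HCC+; ATP5MC3 falls by less than ATP5MC1 with each source.

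Genes that build or serve the complexes were read from lists of assembly factors, mitochondrially encoded subunits, electron carriers with adjacent enzymes, and regulators. Their counts are to be read against all genes, of which 28.5% fell and 24.8% rose with HCC- EVs, and 17.4% fell and 15.6% rose with HCC+ EVs. With HCC- EVs at 1.2 mg/mL, 9 of 14 complex I assembly factors fell and 1 rose, and with HCC+ EVs the counts were the same, 9 and 1. NDUFAF2 (-1.04 ± 0.11 with HCC-, -0.43 ± 0.10 with HCC+) was the lowest with HCC- EVs, and NUBPL (-0.66 ± 0.13), which delivers iron-sulphur clusters, the lowest with HCC+ EVs. ECSIT, an assembly factor also known from immune signalling, rose with each (0.60 ± 0.082 and 0.46 ± 0.082). For complex II the counts lower were 1 of 4 with HCC- and 2 of 4 with HCC+ EVs, the former near the share of all genes, and SDHAF3 was among them (-0.75 and -0.59). For complex III they were 5 of 6 and 4 of 6, with BCS1L, the chaperone for the Rieske protein, at -0.70 and -0.61. LYRM7 fell with HCC- EVs (-1.21 ± 0.22).

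Of 24 complex IV assembly factors tested, 12 fell and 3 rose with HCC- EVs (28.5% and 24.8% of all genes), and 9 fell and 1 rose with HCC+ EVs (17.4% and 15.6% of all genes). LRPPRC, which stabilises mitochondrial mRNAs, fell (-1.05 ± 0.068 and -0.51 ± 0.067), as did the copper chaperone COX17 with HCC- EVs (-1.11 ± 0.11). COX20 rose with each source (2.08 ± 0.30 and 1.12 ± 0.30), and COA8 rose with HCC- EVs (0.57 ± 0.14). COX20 had only 1408 counts over all 21 libraries, so its change is limited by depth. Of the 4 complex V assembly factors 3 and 2 fell, ATPAF1 by the most with HCC- EVs (-1.03 ± 0.065). The 13 mitochondrially encoded subunits had a median of -0.27 with HCC- EVs, where 9 fell, and of -0.071 with HCC+ EVs, where 2 fell, near the share of all genes; none rose with either. MT-CO2, a catalytic subunit of complex IV, stood at 7548 ± 711 CPM in the blank and 5197 ± 24.2 CPM with HCC- EVs (-0.54 ± 0.069, adjusted p = 8.15e-08).

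Among electron carriers and adjacent enzymes, 10 of 11 tested genes fell with HCC- EVs and 7 of 11 with HCC+ EVs (28.5% and 17.4% of all genes). CYCS, which encodes cytochrome c itself, went from 389 ± 46.4 CPM in the blank to 257 ± 31.7 CPM with HCC+ and 159 ± 23.8 CPM with HCC- EVs (-0.60 and -1.29, adjusted p = 2.46e-05 and 1.55e-11). ETFB, which hands electrons from fatty acid oxidation to the chain, had the lowest HCC- value of the list (-1.53 ± 0.10). DHODH, the pyrimidine enzyme that reduces ubiquinone, fell with each source (-1.34 ± 0.10 and -0.97 ± 0.10). Of 12 regulators tested, 10 fell with HCC- and 7 with HCC+ EVs. The factor NRF1 was -0.86 ± 0.095 and -0.69 ± 0.095, and GABPB1, a subunit of GABP, -1.06 ± 0.11 with HCC- EVs, all called lower.

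The sources were compared directly at 1.2 mg/mL, without the blank. Of the 83 members 61 were higher with HCC+ than with HCC- EVs and 1 was lower, where 22.6% of all genes were higher and 12.7% lower. The members' median difference was 0.33 on the log2 scale, beside 0.0061 over all genes. For all 61 the libraries of the sources did not overlap, but these genes were called on the same libraries. By complex 22 of 36, 3 of 4, 7 of 10, 12 of 15 and 17 of 18 genes were higher, from complex I to V. Total count scaling moved the median of all genes by -0.16 and left 36 members higher and 4 lower, where 12% of all genes were higher and 23.4% lower. The largest differences in favour of HCC+ EVs were COX8A (0.75 ± 0.087, adjusted p = 4.95e-08), ATP5MG (0.74 ± 0.12, adjusted p = 8.56e-06), ATP5MC1 (0.74 ± 0.086, adjusted p = 4.69e-08) and NDUFV1 (0.72 ± 0.082, adjusted p = 3.14e-08).

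ATP5MG, subunit g of the membrane part, was at 14.8, 19 and 17.7 CPM with HCC+ EVs and 11.8, 8.21 and 10.7 CPM with HCC- EVs at this dose, beside 24.7, 20.8 and 24.1 CPM in the blank. In complex III, UQCRC2 (0.68 ± 0.067) and CYC1 (0.56 ± 0.067) differed most among called genes, in complex II SDHD (0.58 ± 0.10) and SDHC (0.45 ± 0.058), and in complex IV COX5B followed COX8A (0.54 ± 0.071). The inhibitor ATP5IF1 was the 1 complex V gene not called, with a difference of 0.045 ± 0.062 (adjusted p = 0.61). NDUFV2 was the 1 gene lower with HCC+ EVs, at 0.88, 0.592 and 0.655 CPM against 1.14, 1.35 and 1.26 CPM (-0.82 ± 0.30, adjusted p = 0.0328). That call was lost without HCC+ replicate 2 or 3, without HCC- replicate 2 or 3 and with no filter on low counts, and it carries the pseudogene uncertainty given above.

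At 0.24 mg/mL no member was called against the blank with either source, or between the sources. Over all genes, 0.00511% were called with HCC+ EVs, 0.0% with HCC- EVs and 0.0% between them. At an unadjusted p under 0.05 the counts of members were 8 with HCC+ EVs, 8 with HCC- EVs and 0 between the sources, and DESeq2 called 0 in each. The share of all genes at that unadjusted threshold is not given. These counts, and the 6 below, are therefore not a result about the members. The members' medians against the blank were -0.072 with HCC+ and -0.067 with HCC- EVs. COX8A, for example, was at 60.8, 65.2 and 62.2 CPM with HCC+ and 64.3, 59.9 and 52.9 CPM with HCC- EVs, and only 1 HCC- library lay below the blank range. HCC+ EVs at 0.048 mg/mL gave the same picture, with 0 members called by edgeR, 0.0% of all genes called, 6 members at an unadjusted p under 0.05, 0 called by DESeq2 and a median of -0.045. The smallest adjusted p of any member in these 4 comparisons was 0.61, 0.78, 1 and 0.94, in the order given. That no member passed does not show that these doses had no effect.

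HCC- EVs at 0.048 mg/mL were the exception among the lower doses, with 15 members higher than the blank and 5 lower. Over all genes 8.28% were higher and 8.16% lower, so that the share of members lower was near the background. The higher genes were 6 of complex I, 3 of complex III, 4 of complex IV and 2 of complex V. The 5 lower genes were NDUFA5, SDHD, UQCRB, ATP5F1C and ATP5MG, all without overlap between the groups, whereas 7 of the 15 higher genes overlapped. These calls rested on single libraries: no member was called without blank replicate 1 or without blank replicate 3, whereas 36 members were called without blank replicate 2, 11 without HCC- replicate 1 and 6 without HCC- replicate 2. The shares of all genes called in these fits are not given. Epithelial marker sums were between 4450 and 4930 CPM in this group and between 3657 and 4451 CPM in the blank, and of 6 markers tested 3 rose and 1 fell; their part in the result was not tested.

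In complex I the genes called higher included NDUFS8, an iron-sulphur subunit of the core, at 57.6, 71.2 and 54.8 CPM in the blank and 86.1, 83.8 and 79.9 CPM with HCC- EVs at 0.048 mg/mL (0.44 ± 0.082, adjusted p = 0.00659). All 3 treated libraries were above the highest blank library, that of replicate 2. NDUFB7 was at 51.6, 62.6 and 50.5 CPM in the blank against 77.1, 72.4 and 66.4 CPM (0.39 ± 0.090), NDUFB2 at 28, 29.6 and 29.2 CPM in the blank against 38, 38 and 31.7 CPM (0.31 ± 0.075), and NDUFA13 at 2.2, 3.62 and 2.47 CPM in the blank against 3.96, 4.34 and 4.5 CPM (0.61 ± 0.19), all without overlap. NDUFB10 (139, 148 and 118 against 165, 159 and 146 CPM, 0.22 ± 0.072) and NDUFS6 (71.1, 80.1 and 64.7 against 88.5, 89.8 and 73.7 CPM, 0.22 ± 0.078) overlapped the blank through HCC- replicate 3 and blank replicate 2.

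In complex III, CYC1 was at 406, 402 and 392 CPM with HCC- EVs at 0.048 mg/mL, above each blank library given above (0.31 ± 0.067, adjusted p = 0.00735). UQCRC1, the other core protein, was at 281, 315 and 269 CPM in the blank and 347, 352 and 328 CPM with HCC- EVs (0.25 ± 0.060), also apart, and UQCRQ at 78.2, 77.8 and 65.9 CPM (0.32 ± 0.077) overlapped by 1 library. The complex IV genes all overlapped the blank: COX4I1, the largest nuclear-encoded subunit, was at 407, 453 and 388 CPM in the blank and 494, 496 and 438 CPM with HCC- EVs (0.19 ± 0.058). COX5B was at 116, 119.8 and 99 CPM (0.23 ± 0.070), COX6B1 at 113, 123 and 97.4 CPM in the blank and 133, 134 and 118 CPM with HCC- EVs (0.21 ± 0.073), and COX8A at 82.3, 83.6 and 68.3 CPM (0.30 ± 0.085). In each of these 4 genes blank replicate 2 was the highest blank library and HCC- replicate 3 the lowest treated one.

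In complex V, ATP5F1D, the delta subunit of the F1 part, was at 131, 170.0 and 122 CPM in the blank. With HCC- EVs it was at 198, 192 and 183 CPM (0.44 ± 0.089, adjusted p = 0.00732), without overlap. ATP5ME was at 6.36, 7.75 and 6.39 CPM in the blank against 10.1, 9.37 and 8.43 CPM (0.44 ± 0.13), also without overlap, but it shares 61.3% of its exon bases with MYL5 on the opposite strand. SDHD was the clearest of the lower genes, at 50.6, 48.8 and 48 CPM with HCC- EVs at 0.048 mg/mL against the blank values given above (-0.46 ± 0.10, adjusted p = 0.00732). All 3 treated libraries lay below the lowest blank library.

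GC content moved with these changes. The 15 higher genes had between 45% and 65% GC in their longest transcript (median 57.9%), and the 5 lower genes between 35.0% and 43.6% (median 38.3%). Across the 83 members the log2 fold change and GC content had a Pearson r of 0.52 (Spearman 0.64), and across 19500 tested genes with a GC value 0.33 (Spearman 0.54). Genes of 1 set of libraries are not independent, and these values are descriptions. With the trends of each library with GC content and gene length removed, r over the members was -0.17 and the calls were 4 higher (NDUFB2, NDUFS8, UQCRQ and COX4I1) and 1 lower (SDHD), where 0.353% of all genes were higher and 0.143% lower. NDUFB10 then stood at -0.018 and UQCRB at 0.041, signs opposite to those before. At 1.2 mg/mL against the blank, the same removal gave 67 members lower and 1 higher with HCC- EVs, where 29.5% of all genes were lower and 25.7% higher. With HCC+ EVs it gave 51 lower and 2 higher, where 19.5% of all genes were lower and 17.3% higher.

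**Figure D4:**
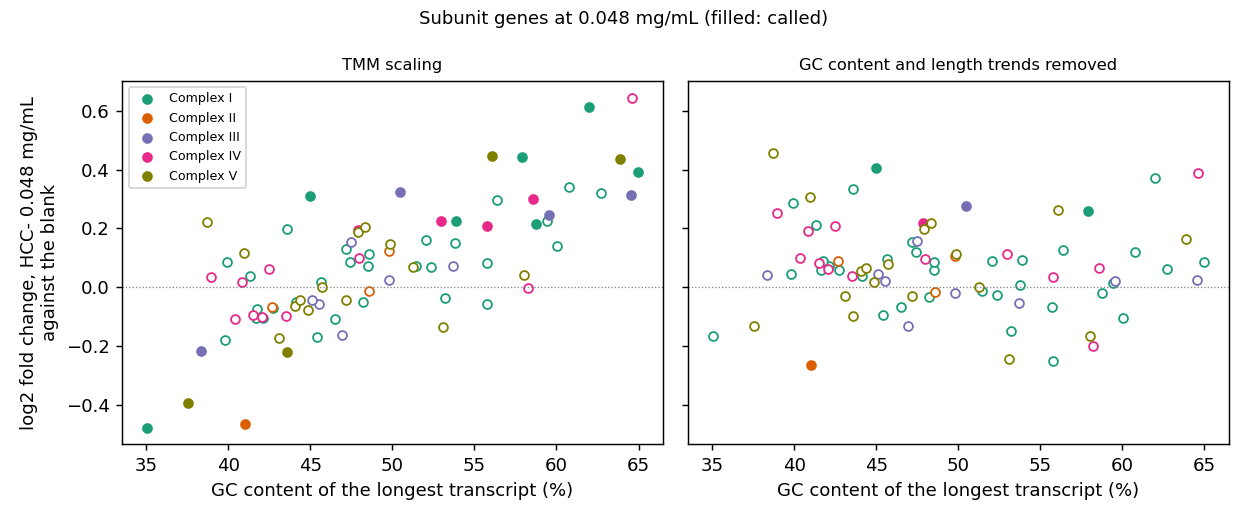
Log2 fold change of each tested member for HCC- EVs at 0.048 mg/mL against the blank (vertical axis) by GC content of its longest transcript (horizontal axis, percent), before (left) and after (right) removal of GC content and length trends; filled points were called, colours are complexes, and COX7A1 (few counts) is not drawn. On the left, filled points above 0 lie between 45% and 65% GC and those below 0 between 35.0% and 43.6%. The median of all tested members is 47.9%. On the right 5 points are filled.

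Between the sources at 0.048 mg/mL, 12 members were lower with HCC+ EVs and 1 was higher, where 2.46% of all genes were lower and 1.08% higher. The lower genes were 3 of complex I, 2 of complex III, 3 of complex IV and 4 of complex V. ATP5F1D had the smallest p, at 148, 130.1 and 127 CPM with HCC+ against 198, 192 and 183 CPM with HCC- EVs (-0.50 ± 0.089, adjusted p = 0.0185). NDUFS8 was at 66.7, 62.7 and 63.1 CPM with HCC+ EVs (-0.38 ± 0.081, adjusted p = 0.0251), below each HCC- library. COX5A, a matrix-side subunit of complex IV, was at 94.3, 88 and 88.7 CPM with HCC+ and 117, 111 and 98.1 CPM with HCC- EVs (-0.27 ± 0.068, adjusted p = 0.033), and ATP5MC2 at 86.2, 87.3 and 90.7 CPM against 118, 121 and 95.4 CPM (-0.35 ± 0.092, adjusted p = 0.0386). SDHD, the 1 gene higher, was at 59.5, 67.3 and 60.9 CPM with HCC+ and 50.6, 48.8 and 48 CPM with HCC- EVs (0.35 ± 0.10, adjusted p = 0.0412). Of the 13, NDUFS6 overlapped between the sources and the other 12 did not. SDHD was not called in any of the 6 fits that left out 1 library. No member was called without HCC+ replicate 2 or 3 or without HCC- replicate 1 or 2, 3 were called without HCC+ replicate 1, and 4 with the GC content and length trends removed, where 0.179% of all genes were called.

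The difference between sources was then tested against dose: whether HCC+ minus HCC- on the log2 scale was the same at 1.2 as at 0.048 mg/mL. It was larger at 1.2 mg/mL for 55 of the 83 members and smaller for 0, where 16.7% of all genes had a larger difference and 7.63% a smaller one. The 55 were 20 of 36, 2 of 4, 6 of 10, 10 of 15 and 17 of 18 genes, from complex I to V, and the members' median was 0.41 beside 0.0058 over all genes. Total count scaling moved the median of all genes by -0.19 and left 37 members with a larger difference. Under that scaling 8.34% of all genes had a larger difference and 16.5% a smaller one. By sign alone, 58 of the 83 were higher with HCC+ EVs at 1.2 mg/mL and lower at 0.048 mg/mL. Of the members, 11 were called in those directions at both doses as well as in the test of the difference. The shares of all genes with either pattern are not given, so these 2 counts are not a result about the members. The calls at 0.048 mg/mL rested on single libraries, as given above. COX8A had the largest difference (1.06 ± 0.12, adjusted p = 1.26e-07), from -0.31 at 0.048 to 0.75 at 1.2 mg/mL. ATP5MC1 (0.98 ± 0.12), NDUFV1 (0.89 ± 0.11) and CYC1 (0.78 ± 0.094) followed in their complexes (adjusted p = 3.78e-07, 8.29e-07 and 2.91e-07).

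**Figure D5:**
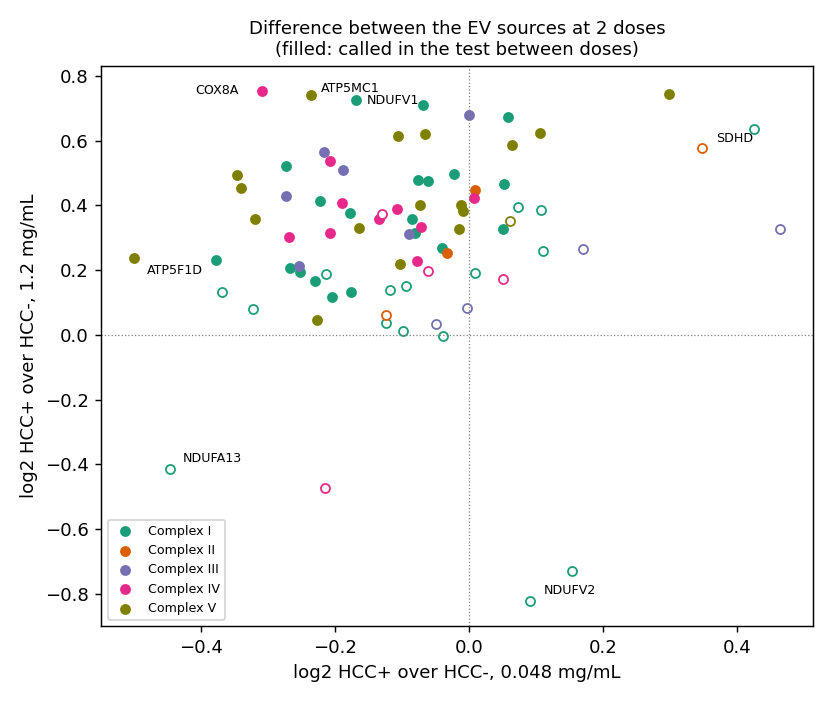
Each point is a tested member: the log2 difference of HCC+ from HCC- EVs at 0.048 mg/mL (horizontal axis) and at 1.2 mg/mL (vertical axis), coloured by complex and filled where the test of the difference between doses was called; COX7A1 is not drawn. Most points are above 0 on the vertical axis and left of 0 on the horizontal axis, with COX8A, ATP5MC1 and NDUFV1 at the top and NDUFV2 low.

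Within each source the highest and lowest doses were compared. With HCC- EVs 74 of the 83 members were lower at 1.2 than at 0.048 mg/mL and 0 higher, where 28.0% of all genes were lower, and the median was -0.68. With HCC+ EVs 50 were lower and 0 higher, where 14.9% of all genes were lower, and the median was -0.26. No library of one dose overlapped the other for any of these 74 and 50 genes, which were called on the same libraries. The lowest HCC- value was COX8A at -1.71 ± 0.088 (adjusted p = 1.88e-16), beside -0.65 ± 0.086 with HCC+ EVs (adjusted p = 8.57e-07). ATP5MC1 was -1.63 ± 0.087 and -0.66 ± 0.085, and NDUFV1 -1.50 ± 0.083 and -0.61 ± 0.081, in the same order. With HCC- EVs the counts were 32 of 36 in complex I, 3 of 4 in complex II, 8 of 10 in complex III, 13 of 15 in complex IV and 18 of 18 in complex V. With HCC+ EVs they were 14, 2, 6, 11 and 17. Total count scaling raised the median of all genes by 0.29 between the HCC- doses, and 55 members were then lower and 1 higher, where 15.2% of all genes were lower and 42.9% higher. SDHB, NDUFS4, UQCRB, NDUFB9 and UQCRFS1 were among those that changed sign from called lower to uncalled values above 0.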

How the data were processed

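The authors deposited raw counts of reads per Ensembl gene for 21 libraries of poly(A) RNA. Per the submitters' processing notes, reads were trimmed with cutadapt 3.4, aligned with HISAT2 2.2.1 to GRCh38 and counted with featureCounts 2.0.1. Neither the annotation release nor the strand setting nor the handling of multi-mapping reads is stated in the labels. Groups came from the sample labels, and 0 columns were left unmapped. Symbols, gene types (GENCODE 29) and promoters (RefSeq, GRCh38.p14) came from reference tables.

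From the counts, edgeR 4.0.16 (R 4.3.3) filtered genes with filterByExpr, scaled by TMM and fitted 7 group means over all 21 libraries (robust quasi-likelihood, 14 residual degrees of freedom). The 2-sided F tests of 12 comparisons were adjusted by Benjamini-Hochberg over 19556 genes. Alternatives were RLE and total count scaling, no filter on low counts, DESeq2 1.42.0, a replicate block, only the groups compared, removal of GC content and length trends (natural splines with 5 degrees of freedom, set on 12250 genes) and leaving out each library. The members and lists were chosen with earlier results of these data known.

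Genes named with values in every library were, per complex, up to 3 called genes with the lowest and 2 tested genes with the highest change with HCC- EVs at 1.2 mg/mL, all SDH genes, c subunit genes, ATP5IF1, tested tissue-restricted isoforms, genes called higher against the blank, and the 4 smallest p-values at lower doses where more than 8 were called. Between sources and between doses the 2 largest changes per complex were named, and of each other list up to 2 called genes per direction. Replicate numbers were not treated as pairs in the main fit. Of 63 pairs of libraries sharing a number, 20 had residuals correlated above 0.1. No such count is given for pairs with different numbers, so this cannot show whether the numbers pair libraries.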

Additional observations from a re-analysis of the deposited data

Results flagged for a closer look

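The difference between HCC+ and HCC- EVs was not the same at 1.2 and at 0.048 mg/mL for 55 members, by the edgeR contrast of the differences. Over all genes, 16.7% had a larger difference at 1.2 mg/mL and 7.63% a smaller one. In log2 units the change of the difference from the lower to the higher dose was 0.89 for NDUFV1, 0.79 for NDUFB7, 0.44 for SDHC, 0.28 for SDHB, 0.78 for CYC1, 0.70 for UQCRQ, 1.06 for COX8A, 0.74 for COX5B, 0.98 for ATP5MC1 and 0.84 for ATP5MC2. In each the HCC+ libraries were higher relative to the HCC- libraries at 1.2 mg/mL. At 0.048 mg/mL the differences themselves rested on single libraries, as given above, and the count of 55 ranged from 47 to 58 when any 1 library was left out.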

How the results depend on the processing

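Of the recomputed counts of called members, 146 stayed within 1.5 times the reported count and 16 did not. For HCC- EVs at 0.048 mg/mL against the blank, the 20 calls became 5 with GC content and length trends removed and 13 with only the groups compared, and from 0 to 36 when 1 library was left out. Over all genes 8.28% were higher and 8.16% lower in the main fit. The shares were 0.353% and 0.143% with the trends removed, and 5.03% and 6.93% with only the groups compared. For the sources at 0.048 mg/mL, the 13 calls became 4 with the trends removed, 30 with only the groups compared and 26 with DESeq2, and from 0 to 14 without 1 library. Over all genes 2.46% were lower and 1.08% higher with HCC+ EVs in the main fit. With only the groups compared the shares rose to 12.6% and 9.22%. With DESeq2 they were 3.89% and 1.69% of 37659 genes, and 0.179% were called with the trends removed. Shares of all genes in the fits without 1 library are not given. For the sources at 1.2 mg/mL, the 62 calls became 40 under total count scaling. Leaving out 1 library gave 46 to 54 calls in place of 57 for HCC+ EVs at 1.2 mg/mL and 69 to 71 in place of 70 for HCC- EVs. In 15 cases a called change of a member turned sign under total count scaling or with the trends removed, none of them called there; they include NDUFB10 with HCC- EVs at 0.048 mg/mL (-0.018 with trends removed) and SDHB between HCC- doses (0.0096 under total count scaling). Of the recomputed values of called genes chosen by the naming rule, 177 lost their call and 1715 kept their direction and side of the threshold. Where only the groups compared entered, fewer libraries set the spread. The cause of the other shifts was not tested. Adding the replicate number as a block gave 57 and 70 calls at 1.2 mg/mL against the blank. It gave 23 for HCC- EVs at 0.048 mg/mL and 16 for the sources at 0.048 mg/mL. With the block, 8.91% of all genes were higher and 8.57% lower for HCC- EVs at 0.048 mg/mL against the blank. Between the sources at 0.048 mg/mL, 3.6% of all genes were lower and 1.98% higher with HCC+ EVs. These shares of all genes at 0.048 mg/mL were also above those of the main fit. Of 21 libraries, 9 correlated best with their own number. Genes near 1 CPM and genes with copies or shared exons are limited by depth and by the counting. Medians of the complexes moved by more than the replicate spread in 55 recomputations, 24 of them under total count scaling.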

Other observations

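With HCC- EVs at 0.048 mg/mL some genes outside the complexes were called higher as well, where 8.28% of all genes were. They included the assembly factors NDUFAF3 (0.39 ± 0.085, adjusted p = 0.0074) and UQCC3 (0.41 ± 0.14, adjusted p = 0.0389), the mitochondrial RNA polymerase POLRMT (0.35 ± 0.081, adjusted p = 0.009) and the nuclear receptor ESRRA (0.35 ± 0.081, adjusted p = 0.00927). The keratin KRT19, an epithelial marker, was 0.45 ± 0.11 (adjusted p = 0.0116) in the same comparison. With GC content and length trends removed, the values were 0.11 for NDUFAF3, 0.25 for UQCC3, 0.071 for POLRMT, 0.084 for ESRRA and 0.20 for KRT19, and the calls over all genes went from 3216 to 97. As given above, no subunit gene was called in this comparison without blank replicate 1 or 3. These genes were chosen after their values were seen.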
